A study of Mus musculus with 6 samples.

Results

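The COP9 signalosome was examined through the genes of its subunits, Gps1, Cops2, Cops3, Cops4, Cops5, Cops6, Cops7a, Cops7b, Cops8 and Cops9. The members were found by gene name, and all 10 were present among the 55487 genes of the deposited table. RNA was sequenced from LSKs (the Lin-, Sca-1+ and c-Kit+ compartment of the bone marrow, where hematopoietic stem and progenitor cells are found). The cells were sorted from Tespa1-/- mice and littermate Tespa1+/+ (wild-type) controls, with 3 libraries in each group. All mice had received total body irradiation (IR) of 5.0 Gy per the study's methods, and the LSKs were taken at day 13, so no unirradiated cells entered the comparison. The knockout was constitutive and carried by the whole animal on a C57BL/6 background, so the targeted allele was present in every cell of the mouse and not in LSKs alone. Whether a library came from 1 mouse or from a pool was not given, and p-values therefore measure the spread between these libraries, which may be technical.

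The COP9 signalosome is a nuclear and cytoplasmic protein complex that removes the small ubiquitin-like protein NEDD8 from cullins, the scaffolds of the cullin-RING ubiquitin ligases. Cycles of NEDD8 addition and removal let these ligases exchange their substrate receptors. Most subunits carry a PCI domain and build the scaffold, a pair (CSN5 and CSN6, from Cops5 and Cops6) carry an MPN domain, of which CSN5 is the active protease, and the small acidic subunit from Cops9 has neither. The lid of the proteasome and the translation initiation factor eIF3 are built from the same PCI and MPN domains. The study examined CSN6 as a possible partner of Tespa1 and for its place in the control of c-Myc stability.

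The libraries held between 12856630 and 30576981 counts, and 15332 genes were tested, among them all 10 subunits, whose mean counts lay between 580.7 and 2207. Tespa1 fell (log2 fold change -1.23, edgeR adjusted p 7e-06), yet 176 to 261 counts remained in the Tespa1-/- libraries. Of the genes that define the sort, Kit fell (-0.97), while Ly6a, the gene of Sca-1, was at 50.5 ± 11.6 and 40.4 ± 3.36 CPM (a count relative to the TMM-scaled library total, SD, n = 3) and did not pass the test, although it was lower past the test after a correction for gene length (-0.65, edgeR adjusted p 0.00934). The stem and progenitor markers Mecom (-1.67) and Flt3 (-1.01) fell, and all 12 neutrophil granule markers rose, their summed level going from between 10600 and 11350 CPM to between 17600 and 18450 CPM. Their log2 fold changes ranged from 0.48 to 8.14 with a median of 4.02, a size that the summed level does not show. Of the B and plasma cell markers 2 rose and 3 fell, and of the erythroid markers 3 rose and 2 fell. After the length correction 1 of the B and plasma cell markers was higher and 3 lower, and 2 of the erythroid markers were higher and 2 lower. Beside this stand 30.4% and 26.5% of all genes in that fit. Both T cell markers that could be tested fell, from a summed 2.70 to 2.90 CPM to a summed 1.05 to 1.24 CPM. Over all genes tested, 31.5% rose and 31.8% fell past the test. Of the lineage antigens of the sort, the genes Itgam and Ptprc could be tested, and neither passed the test. Their log2 fold changes were -0.57 (edgeR adjusted p 0.152) and -0.32 (edgeR adjusted p 0.0715), with no overlap between groups. After the length correction Itgam was at -0.44 (edgeR adjusted p 0.269), while Ptprc changed sign and was higher (0.43, edgeR adjusted p 0.0307). Ptprc was counted as a whole gene, so B220, the form stained in the sort, was not measured apart. Cd3e was at 4 to 8 counts in Tespa1+/+ and at 0 in every Tespa1-/- library, and Ly6g was at 0 in every Tespa1+/+ library and at 4 to 8 counts in Tespa1-/-. In bulk samples fewer cells of a type and less RNA per cell cannot be told apart, and the part of these marker shifts in the subunit values below was not tested.

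RefSeq (GRCm38.p6) held promoter windows, from 250 bases before to 50 bases after a start site, for 9 of the 10 genes (none for Cops5), 12 windows in all. Those of Cops6, Cops9 and Cops7a, which rose, and of Cops4 and Cops8, which did not, are printed 5′ to 3′ so that the start regions of both kinds can be compared. They lie at chr5:138160852-138161151 on the plus strand for Cops6, chr1:92641936-92642235 on the minus strand for Cops9, chr6:124965463-124965762 on the minus strand for Cops7a (the upstream of its 2 windows), chr5:100518059-100518358 on the plus strand for Cops4 and chr1:90603175-90603474 on the plus strand for Cops8. Capitals mark a motif named after the factor or element it resembles, each searched on both strands, of the YY1 type (ATGGCGGC), of the ETS type (CCGGAAGT), an E-box, a CCAAT box or a GC box.
Cops6: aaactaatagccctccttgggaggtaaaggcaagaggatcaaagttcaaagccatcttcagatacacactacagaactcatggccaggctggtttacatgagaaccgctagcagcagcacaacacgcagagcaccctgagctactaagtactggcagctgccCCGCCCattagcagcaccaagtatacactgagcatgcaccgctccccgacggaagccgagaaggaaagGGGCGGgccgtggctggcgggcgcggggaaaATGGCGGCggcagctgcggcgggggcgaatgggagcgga
Cops9: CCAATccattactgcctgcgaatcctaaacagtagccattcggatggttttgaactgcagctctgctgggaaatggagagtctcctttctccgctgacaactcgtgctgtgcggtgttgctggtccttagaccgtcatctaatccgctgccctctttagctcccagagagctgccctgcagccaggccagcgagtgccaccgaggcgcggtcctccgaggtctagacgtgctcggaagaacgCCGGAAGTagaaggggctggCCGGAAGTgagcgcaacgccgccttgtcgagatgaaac
Cops7a: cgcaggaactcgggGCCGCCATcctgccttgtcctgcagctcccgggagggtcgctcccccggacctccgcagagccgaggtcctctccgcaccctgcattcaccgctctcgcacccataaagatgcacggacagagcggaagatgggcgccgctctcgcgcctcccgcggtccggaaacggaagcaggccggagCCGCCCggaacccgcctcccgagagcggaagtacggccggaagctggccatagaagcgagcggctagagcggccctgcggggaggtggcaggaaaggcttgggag
Cops4: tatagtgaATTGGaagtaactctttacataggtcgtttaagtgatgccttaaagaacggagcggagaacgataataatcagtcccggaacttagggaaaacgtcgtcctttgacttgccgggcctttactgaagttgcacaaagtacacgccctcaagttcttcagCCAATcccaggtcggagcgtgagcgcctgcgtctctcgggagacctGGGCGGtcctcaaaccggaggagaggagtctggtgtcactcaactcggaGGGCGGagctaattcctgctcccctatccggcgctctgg
Cops8: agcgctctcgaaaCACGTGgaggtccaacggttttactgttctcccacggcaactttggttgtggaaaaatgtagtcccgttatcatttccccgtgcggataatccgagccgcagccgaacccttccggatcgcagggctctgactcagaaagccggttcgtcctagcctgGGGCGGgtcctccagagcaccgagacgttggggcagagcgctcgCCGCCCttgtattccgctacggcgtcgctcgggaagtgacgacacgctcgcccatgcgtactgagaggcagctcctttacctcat
The YY1-type motif was found in a window of Cops6 and in a window of Cops7a, and in 2.24% of all 32851 promoter windows. The ETS-type motif was found in windows of Cops3 and Cops9 (3.89% of all windows), and Cops9 held it in 2 places in each window. An E-box, CACGTG, was in windows of Cops7a and Cops8 (7.15% of all windows). The letters CCAAT were in windows of Cops4 and Cops9 (37.4% of all windows). A GC box, GGGCGG, was in 7 of the 12 subunit windows, which belong to 5 of the 9 genes, and in 35.7% of all windows. An NRF1-type motif (GCGCATGC) was in none of the subunit windows and in 2.71% of all windows. No motif was held by all of the printed windows of the genes that rose. The window of Cops7b, which also rose and is not printed, held none of these motifs. The subunit windows had a GC content of 51.0% to 80.0%, against a median of 52.7% over all windows. A match of letters is a description of the window and not a measured binding site.

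To ask whether the subunits moved together, the counts of Tespa1-/- and Tespa1+/+ LSKs were compared for each gene, with the edgeR quasi-likelihood test and Benjamini-Hochberg adjustment over all genes tested. Cops9, Cops5, Cops6, Cops7a and Cops7b rose, the last by a margin that most other settings did not keep, and no subunit fell. The rises of Cops9, Cops5 and Cops6 were past 1.5-fold, those of Cops5 and Cops6 narrowly, and with total counts and no TMM factors Cops5 was at 0.51 and Cops6 at 0.50 on the log2 scale, still past the test but short of that fold. Thus 5 of the 10 subunits were higher, beside 31.5% of all genes tested, and 0 were lower, beside 31.8%. Past 1.5-fold, 3 were higher (14.0% of all genes) and 0 were lower (19.2%). All 3 Tespa1-/- libraries lay above all 3 Tespa1+/+ libraries for 6 subunits (34.5% of all genes), and below them for 1 subunit, Cops8 (34.6%). The median log2 fold change of the 10 subunits was 0.26, with a range of -0.11 to 0.97, and that of all genes tested was 0.00.

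**Figure D1:**
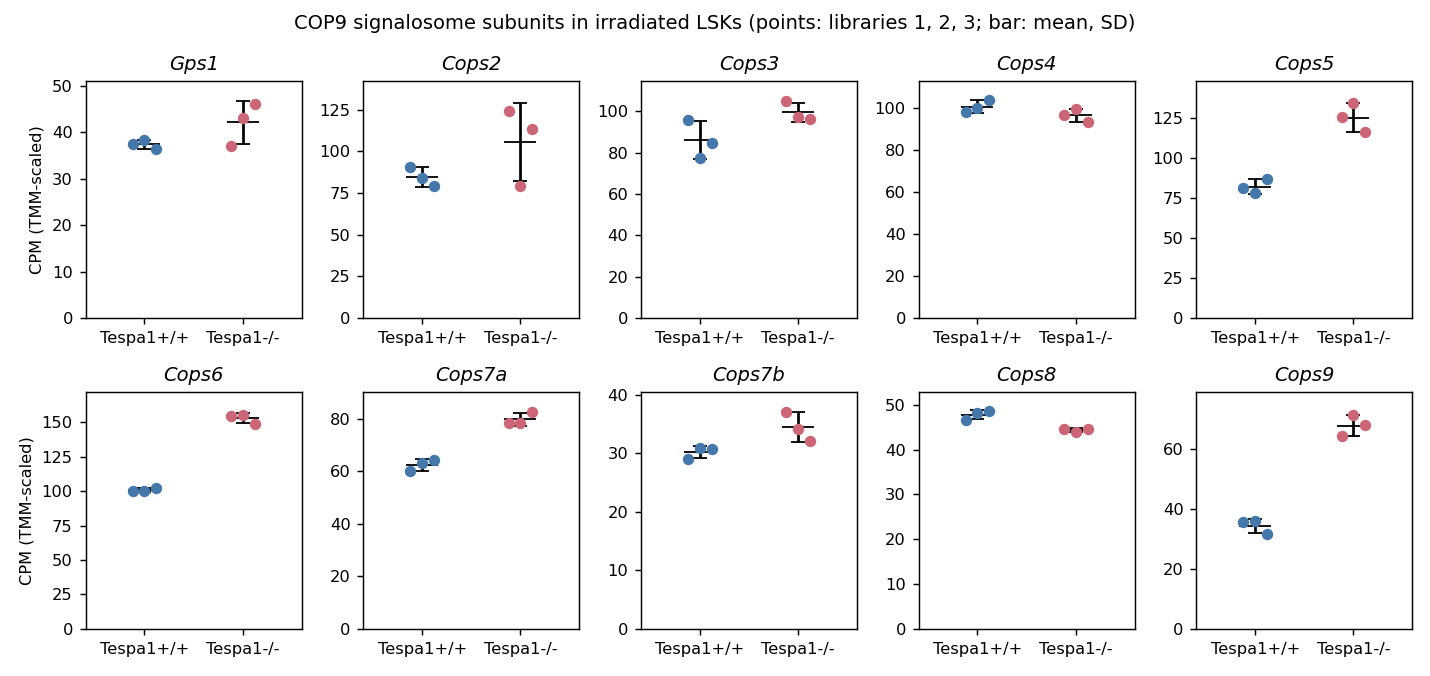
Level of each subunit in CPM (counts relative to the TMM-scaled library total, linear axes from 0) in the 3 Tespa1+/+ and 3 Tespa1-/- libraries, with points for libraries and bars for mean and SD. The groups are far apart for Cops9, Cops6 and Cops5, close together for Cops4 and Gps1, and 1 Tespa1-/- library of Cops2 lies apart from the other 2.

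Both MPN subunits rose, and the difference between their fold changes was not tested. Cops6 (ENSMUSG00000019494, GRCm38 chromosome 5, 138161071 to 138164646, plus strand, 6 merged exons) encodes CSN6, which has no protease activity of its own and pairs with CSN5. It was at 99.9, 100.4 and 102.5 CPM in the Tespa1+/+ libraries and at 154.6, 155.5 and 148.9 CPM in the Tespa1-/- libraries. The groups lay well apart, and the spread within each was small. The means were 100.9 ± 1.41 and 153.0 ± 3.59 CPM (SD, n = 3), a log2 fold change of 0.60 (SE 0.03, 95% interval 0.52 to 0.68, edgeR adjusted p 8.12e-06), or 1.52-fold. Cops5 (ENSMUSG00000025917, chromosome 1, 10024601 to 10038168, minus strand) encodes the protease CSN5. Its levels were 80.9, 78.3 and 87.0 CPM in Tespa1+/+ and 125.2, 133.9 and 115.8 CPM in Tespa1-/- LSKs. The lowest Tespa1-/- library was above the highest Tespa1+/+ library, although both groups were more spread than for Cops6. The log2 fold change was 0.61 (SE 0.06, 95% interval 0.46 to 0.76, edgeR adjusted p 0.000154), also 1.52-fold.

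Exons of Cops6 and Cops5 overlap neighbours on the opposite strand, and whether the counting used the strand was not given in the sources used here. The last 64 bases of Cops6 (chr5:138164583-138164646, 2.53% of its exon bases) also belong to the end of Mcm7, a helicase subunit of DNA replication. Mcm7 was at 465.2 ± 4.62 and 487.8 ± 4.45 CPM (SD, n = 3), which is 0.07 on the log2 scale (SE 0.02, edgeR adjusted p 0.034), and the ratio of Cops6 to Mcm7 counts went from 0.217 ± 0.00466 to 0.314 ± 0.0101 (SD, n = 3). Cops5 shares 182 bases (chr1:10037987-10038168, 4.83% of its exon bases) with Cspp1, a centrosome and cilium protein gene, which fell by 0.60 on the log2 scale (SE 0.05, edgeR adjusted p 6.44e-05). Without a length correction, Mcm7 moved by less than Cops6, and Cspp1 in the other direction from Cops5. With the length correction Mcm7 was at 0.13, beside 0.44 for Cops6. Cspp1 then changed sign and was higher (0.14, edgeR adjusted p 0.0484), beside 0.60 for Cops5. What reads from the shared bases add to the counts of Cops6 and Cops5 was not tested. The study's qPCR primers for CSN6 are shown because they place that assay within Cops6 and outside the shared bases.
CSN6 forward: ggagtgactgggagtgtttcc
CSN6 reverse: gagccccaatcacctgcatag
By exact match to GENCODE M21 transcripts, the forward primer lies at chr5:138161395-138161415, and the reverse primer, given as its own 5′ to 3′ sequence, spans an exon junction between 138161489 and 138161685. The product is 115 bases long in the 4 Cops6 transcripts that hold both primers, 2 of them annotated as protein coding and 2 as retained introns.

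Cops9 showed the largest fold change of the 10 subunits. It encodes the smallest subunit, which was the last to be recognised as part of the complex, and also has the shortest exon length of the 10 (1499 bases, ENSMUSG00000073616, chromosome 1, 92637145 to 92641985, minus strand). Its levels were 35.6, 35.8 and 31.7 CPM in Tespa1+/+ and 64.1, 71.0 and 67.7 CPM in Tespa1-/- LSKs. The lowest Tespa1-/- library thus stood well above the highest Tespa1+/+ library. The log2 fold change was 0.97 (SE 0.07, 95% interval 0.82 to 1.13, edgeR adjusted p 1.81e-05), or 1.97-fold.

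Of the 7 scaffold subunits with PCI domains, Cops7a and Cops7b rose and the other 5 did not pass the test. Cops7a and Cops7b are paralogues that occupy the same place in the complex. Cops7a (ENSMUSG00000030127, chromosome 6, 124958413 to 124965538, minus strand) was at 60.01, 63.0 and 64.1 CPM in Tespa1+/+ and at 78.3, 78.3 and 82.4 CPM in Tespa1-/- LSKs. These groups did not overlap, and the log2 fold change was 0.35 (SE 0.04, 95% interval 0.25 to 0.46, edgeR adjusted p 0.000368). Cops7b (ENSMUSG00000026240, chromosome 1, 86582904 to 86609375, plus strand), the least abundant subunit, was at 29.0, 31.0 and 30.7 CPM and at 37.1, 34.1 and 32.0 CPM. The groups did not overlap here either, but they were separated by little more than 1 CPM. Its log2 fold change of 0.19 (SE 0.07, 95% interval 0.02 to 0.35) had an edgeR adjusted p of 0.0489, and under 12 of 16 other settings it did not pass the test.

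Gps1, Cops2 and Cops3, which encode CSN1, CSN2 and CSN3, had higher means in Tespa1-/- LSKs but did not pass the test. Cops3 (chromosome 11, 59817795 to 59839838, minus strand) was at 96.0, 77.6 and 84.7 CPM in Tespa1+/+ and at 104.7, 97.1 and 96.4 CPM in Tespa1-/- LSKs. All Tespa1-/- libraries lay above the Tespa1+/+ libraries, the lowest of them just above the first Tespa1+/+ library. The log2 fold change was 0.21 (SE 0.08, 95% interval 0.02 to 0.40, edgeR adjusted p 0.0537), and without Tespa1+/+ replicate 1 it was 0.30 with an edgeR adjusted p of 0.00569. Cops3 also passed with DESeq2 (adjusted p 0.0422). Cops3 shares exon bases with 2 genes on the other strand, 279 bases with the antisense gene Gm16062 (1.29 ± 0.112 and 1.94 ± 1.05 CPM) and 87 bases with Nt5m, the gene of a mitochondrial nucleotidase (17.8 ± 0.856 and 23.6 ± 1.02 CPM, SD, n = 3 in each).

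Cops2, whose product contacts the cullin, was the most variable subunit. It was at 90.7, 83.9 and 79.2 CPM in Tespa1+/+ and at 124.2, 79.0 and 113.2 CPM in Tespa1-/- LSKs. Tespa1-/- library 2 sat at the bottom of the Tespa1+/+ range, while the other 2 Tespa1-/- libraries lay above it. The log2 fold change of 0.32 (SE 0.16, 95% interval -0.05 to 0.68) had an edgeR adjusted p of 0.113, and without that library it was 0.50 with an edgeR adjusted p of 0.00152. The biological coefficient of variation of Cops2 was 14.2%, against a median of 6.28% for the 4432 genes with a mean count of at least 1000, of which 4.87% had a higher dispersion. With DESeq2 on all 6 libraries the same log2 fold change passed (adjusted p 0.037), so the call of Cops2 depended on the tool as well as on that library. Cops2 shares 31 exon bases with Galk2, a galactokinase-related gene that rose by 0.56 on the log2 scale (edgeR adjusted p 6.59e-05).

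Gps1 (chromosome 11, 120784272 to 120789102, plus strand) was at 37.6, 38.3 and 36.4 CPM in Tespa1+/+ and at 37.1, 43.2 and 46.1 CPM in Tespa1-/- LSKs. The groups overlapped through the first Tespa1-/- library, and the log2 fold change was 0.17 (SE 0.08, 95% interval -0.03 to 0.37, edgeR adjusted p 0.116). Without that library it was 0.26 with an edgeR adjusted p of 0.0112.

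Cops4 and Cops8 had means that were not higher in Tespa1-/- LSKs. Cops4 (ENSMUSG00000035297, chromosome 5, 100518309 to 100547803, plus strand), the gene of the subunit CSN4 that adjoins the MPN pair, was at 98.3, 100.2 and 104.1 CPM in Tespa1+/+ and at 97.0, 99.5 and 93.4 CPM in Tespa1-/- LSKs. The groups overlapped, and the log2 fold change was -0.06 (SE 0.04, 95% interval -0.16 to 0.04, edgeR adjusted p 0.23). Cops8 (ENSMUSG00000034432, chromosome 1, 90602981 to 90613341, plus strand), the gene of the smallest PCI subunit CSN8, was at 46.7, 48.1 and 48.6 CPM and at 44.6, 43.9 and 44.7 CPM. Its groups did not overlap, but the log2 fold change of -0.11 (SE 0.04, 95% interval -0.21 to -0.00166) had an edgeR adjusted p of 0.0712. These calls turned on the scaling, since with total counts and no TMM factors, which lowers the median over all genes by 0.10, Cops4 was at -0.16 (edgeR adjusted p 0.0112) and Cops8 at -0.21 (edgeR adjusted p 0.00485). With a correction for gene length, the sign changed for Cops4 (0.06 with union exon length) and for Cops8 (0.01 with the length implied by the FPKM values).

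The subunits differ in length, and in these libraries short genes had higher fold changes than long ones, so each subunit was set beside tested genes within 1.2-fold of its length and with a mean count of at least 100. For Cops9 the median log2 fold change of the genes of like length was 0.46 and its own 0.97. For Cops5 the 2 values were 0.09 and 0.61, and for Cops6 0.27 and 0.60. These 3 subunits lay above the upper quartile of the genes of like length, which was 0.67 for Cops9, 0.34 for Cops5 and 0.49 for Cops6. Cops7a (0.35) lay above a median of 0.25 and below an upper quartile of 0.47, and Cops7b (0.19) lay above both a median of -0.11 and an upper quartile of 0.17. Gps1 (0.17) and Cops4 (-0.06) lay close to the medians of 0.22 and -0.05 for their lengths. A fit in which the trend with union exon length was removed from each library gave log2 fold changes of 0.69 for Cops9, 0.60 for Cops5, 0.44 for Cops6, 0.36 for Cops7b and 0.22 for Cops7a. The same 5 subunits were past the edgeR test in that fit, beside 30.4% of all genes, and 0 were lower, beside 26.5%. Cops9 and Cops5 remained past 1.5-fold, and Cops6 did not.

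**Figure D2:**
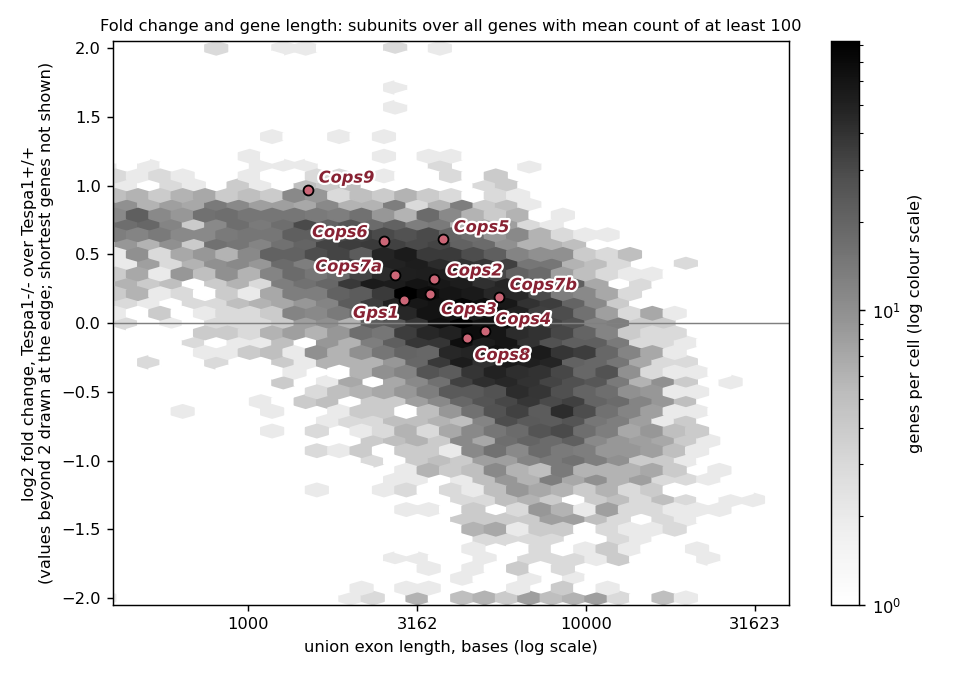
Log2 fold change (Tespa1-/- over Tespa1+/+) against union exon length in bases (log scale), with grey hexagons for the number of genes with a mean count of at least 100 (log colour scale) and red points for the subunits. Cops9 (1499 bases) and Cops5 (3766 bases) lie at the upper side of the genes of their length, and Cops4 (5006 bases) and Gps1 (2879 bases) lie near the middle.

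**Figure D3:**
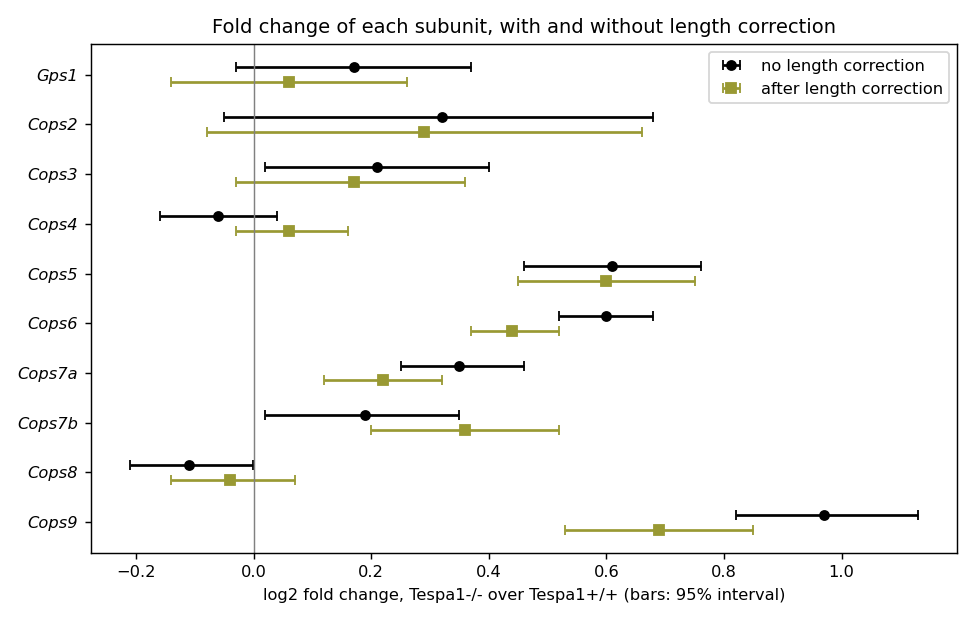
Log2 fold change of each subunit with its 95% interval, without (black circles) and with (olive squares) the correction for union exon length. The correction lowers Cops9 from 0.97 to 0.69 and Cops6 from 0.60 to 0.44, raises Cops7b from 0.19 to 0.36 and leaves Cops5 near 0.60.

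Levels were compared between subunits on the deposited FPKM scale, which divides by a length that was longer than the union exon length for all 10 subunits. For Cops6 the length implied by count and FPKM was 4306 bases, against 2525 bases of union exon and a gene span of 3576 bases, and for Cops7b it was 11047 against 5515 bases of union exon. Orders, shares and ratios in FPKM rest on these lengths. In Tespa1+/+ LSKs the order from high to low was Cops6 (24.2 ± 0.327 FPKM, SD, n = 3), Cops9, Cops3, Cops7a, Cops4, Cops2, Cops5, Gps1, Cops8 and Cops7b (2.83 ± 0.0954 FPKM). Neighbours in the order from Cops9 down to Cops5 overlapped in their libraries, while Cops6 stood above the rest and Gps1, Cops8 and Cops7b each stood apart below. In Tespa1-/- LSKs Cops9 was highest (38.6 ± 2.03 FPKM), followed by Cops6 (34.3 ± 0.812 FPKM) and Cops5 (21.2 ± 1.55 FPKM), which had been in place 7. Neighbours from Cops5 through Cops3, Cops7a and Cops2 to Cops4 overlapped, and the last 3 places were held by Gps1, Cops8 and Cops7b as before. The place of Cops9 depended on the length used. Per kilobase of union exon, Cops6 was highest in both groups, at 41.3 ± 0.557 and 58.4 ± 1.38 CPM per kilobase (SD, n = 3). Unlike the other CPM values, these are relative to the plain library total, without TMM factors. On this scale Cops9 was in place 5 in Tespa1+/+ and next after Cops6 in Tespa1-/- LSKs.

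Summed over the subunits, FPKM came to 148.5, 144.2 and 145.1 in Tespa1+/+ and to 186.5, 184.4 and 184.2 in Tespa1-/- LSKs. The make-up of this sum was unequal between the groups. Cops6 held 16.2%, 16.7% and 17.0% of it in wild-type libraries, against 18.5%, 18.9% and 18.1% in Tespa1-/- libraries. This is a difference of 1.91 percentage points, with a two-sided exact permutation p of 0.1, the smallest that 3 libraries against 3 allow. The share of Cops9 went from 14.4% ± 0.936 to 20.9% ± 1.21 (SD, n = 3). Cops4 went from 11.4% ± 0.446 to 8.02% ± 0.256 and Cops8 from 4.53% ± 0.151 to 3.09% ± 0.0301, both with no overlap between groups. The shares of Cops2, Cops5 and Cops7a overlapped between the groups. Shares move against each other by construction, and without Cops9 in the sum the difference for Cops6 was 4.01 percentage points.

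**Figure D4:**
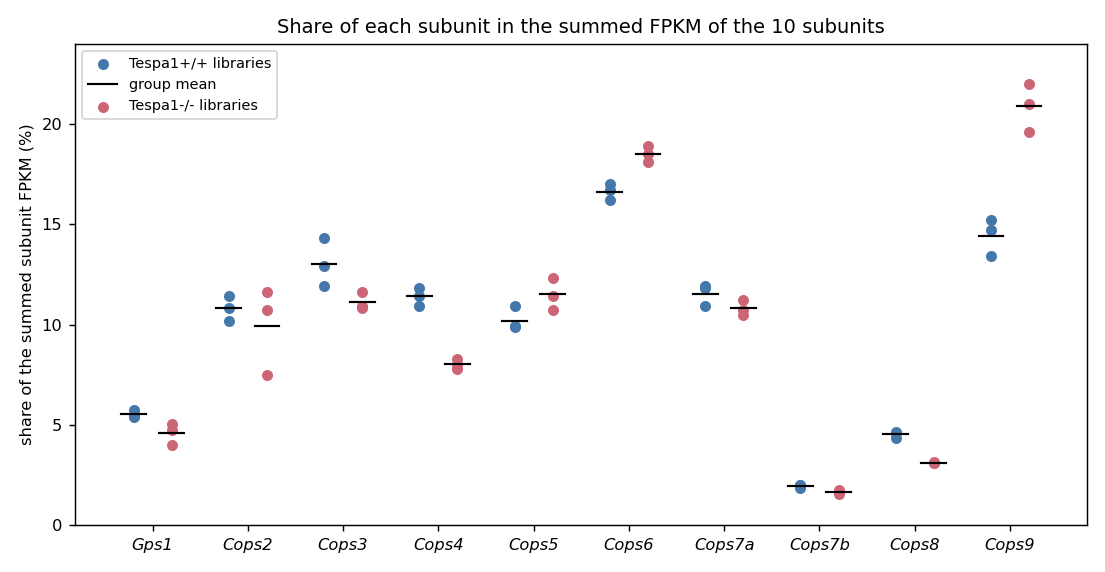
Share of each subunit in the summed FPKM of the 10 subunits (percent, linear axis from 0), with a point for each library and a line for the group mean. The Tespa1-/- libraries lie higher for Cops9 and Cops6 and lower for Cops4, Cops8, Cops3, Cops7b and Gps1.

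Cops7a outweighed its paralogue Cops7b in every library. The FPKM ratio of Cops7a to Cops7b was 5.95, 5.85 and 6.005 in wild-type libraries, against 6.07, 6.60 and 7.40 in Tespa1-/- libraries. The groups did not overlap, although the first Tespa1-/- library lay close to the Tespa1+/+ range. The log2 ratio differed by 0.17, with a two-sided exact permutation p of 0.1, again the smallest that this design allows. With levels corrected for union exon length the difference was -0.14 (exact permutation p 0.3), so its direction depended on the treatment of length.

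The proteasome lid and eIF3, the complexes with the same domain make-up, were compared with the signalosome. All 9 lid subunits rose, with log2 fold changes from 0.26 to 0.94 and a median of 0.54. The largest were those of Sem1 (0.94), the smallest lid subunit, of Psmd14 (0.74), the deubiquitinase and the counterpart of Cops5, and of Psmd3 (0.65). All 14 eIF3 genes rose, from 0.28 to 0.68 with a median of 0.49, with Eif3i (0.68), Eif3g (0.65) and Eif3j1 (0.63) the largest. The signalosome had a median of 0.26 and had 5 subunits that did not pass the test. Every gene of the other 2 lists passed it as higher, before and after the length correction. Beside this stand 31.5% of all genes before that correction and 30.4% after it. The MPN pair of the lid, Psmd14 and Psmd7 (0.54), and that of eIF3, Eif3h (0.51) and Eif3f (0.48), stood near Cops5 (0.61) and Cops6 (0.60). Genes outside these pairs stood as near, such as Psmd13 (0.62) and Eif3j1. After the length correction Psmd14 was at 0.62, Psmd7 at 0.35, Eif3h at 0.24 and Eif3f at 0.37. Cops5 was then at 0.60 and Cops6 at 0.44. The signalosome to lid ratio of summed FPKM was 0.566, 0.546 and 0.533 in wild-type libraries, and at 0.490, 0.496 and 0.503 the Tespa1-/- libraries did not overlap with them. Over that of eIF3 it was 0.137 ± 0.00217 and 0.138 ± 0.00104 (SD, n = 3), with overlap between the groups. No test of a difference between the lists was made.

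**Figure D5:**
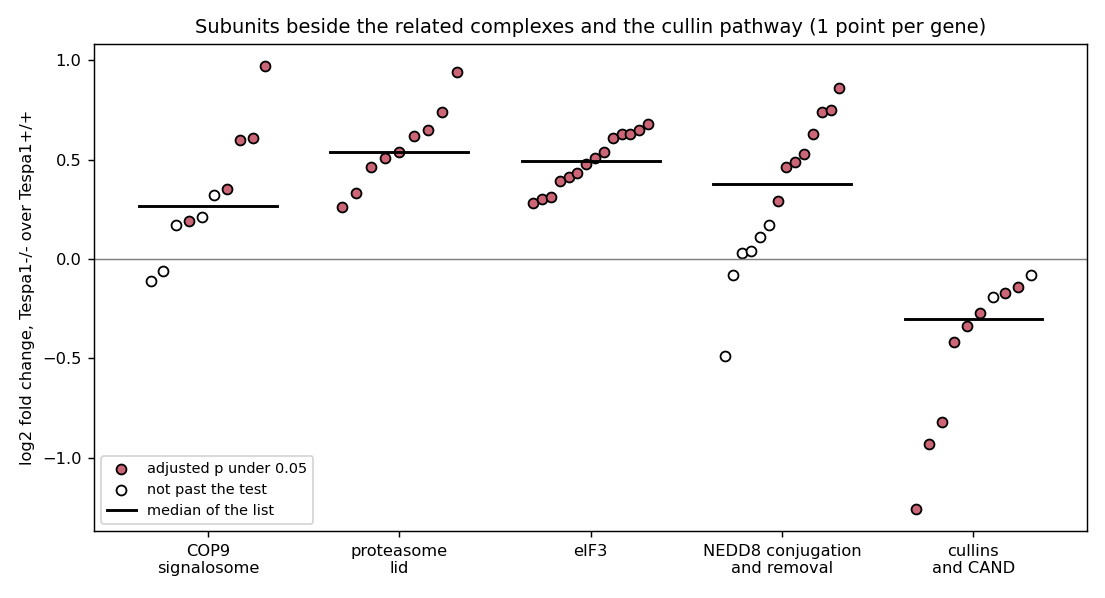
Log2 fold change (Tespa1-/- over Tespa1+/+) of each gene in 5 lists, filled where the edgeR adjusted p was under 0.05 and open where not, with a line at the median of the list. All points of the proteasome lid and eIF3 are filled and above 0, the signalosome and the NEDD8 list hold filled and open points, and the cullins and CAND genes lie below 0.

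The substrate of the signalosome is a cullin joined to NEDD8, so the genes that attach and remove NEDD8 were examined next. Of 14 such genes 8 rose and 0 fell, beside 31.5% and 31.8% of all genes tested, and their median log2 fold change was 0.38. Nedd8 itself was at 65.5, 61.1 and 60.6 CPM in Tespa1+/+ and at 105.0, 98.9 and 108.1 CPM in Tespa1-/- LSKs. These groups were far apart, and on the log2 scale Nedd8 rose by 0.74 (SE 0.05, edgeR adjusted p 1.92e-05). Ube2m, the main conjugating enzyme for NEDD8, rose by 0.86 (edgeR adjusted p 0.000211), and Uchl3, a hydrolase that can process NEDD8, rose by 0.75 (edgeR adjusted p 8.77e-05). After the length correction Nedd8 was at 0.42, Ube2m at 0.68 and Uchl3 at 0.75. In that fit 9 of the 14 genes were higher and 0 lower, beside 30.4% and 26.5% of all genes, with a median of 0.37. Senp8, the protease that matures NEDD8, was at 4.12 ± 0.71 and 4.59 ± 1.11 CPM (SD, n = 3) and did not pass the test. Dcun1d1, a co-factor of NEDD8 transfer named here after its values were seen, did not pass the test either, and its Tespa1-/- libraries were at 63.6, 25.9 and 59.0 CPM, so that Tespa1-/- library 2 was the low one, as for Cops2.

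The cullins went the other way from the subunits that rose. Of the 8 cullins and 2 CAND exchange factors, 8 fell and 0 rose, beside 31.8% and 31.5% of all genes tested, with a median log2 fold change of -0.30. Cul9 (-0.93), Cul7 (-0.82) and Cand2 (-1.26) fell most. Cul4b (-0.34), Cul5 (-0.27), Cul3 (-0.17) and Cul1 (-0.14) fell by less, while Cul2 (-0.08, edgeR adjusted p 0.296) and Cul4a (-0.19, edgeR adjusted p 0.472) did not pass the test. Cand1, which swaps substrate receptors on cullins that carry no NEDD8, went from 218.0 ± 6.72 to 162.9 ± 5.57 CPM (SD, n = 3), a log2 fold change of -0.42 (edgeR adjusted p 7.77e-05). These genes are long, with a median exon length of 5941 bases, and after the length correction 4 of the 10 were lower, beside 26.5% of all genes, with a median of -0.09 and Cand1 at -0.04.

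Among the adaptors and substrate receptors of the cullin ligases, 19 of 20 genes could be tested, of which 4 rose and 10 fell, beside 31.5% and 31.8% of all genes tested. Elob (0.72), Eloc (0.49) and Skp1a (0.32), which link receptors to cullins, were the largest rises, and Dcaf1 (-0.92), Dtl (-0.66) and Crbn (-0.53) the largest falls. After the length correction Dcaf1 (-0.58) and Crbn (-0.24) stayed lower past the test, and Dtl was at -0.04 (edgeR adjusted p 0.343). Fbxw7, the receptor that directs c-Myc to degradation, fell by 0.50 on the log2 scale (edgeR adjusted p 0.00156), and after the length correction its log2 fold change was -0.20 (edgeR adjusted p 0.07). With that correction 9 of the 19 were higher and 4 lower, beside 30.4% and 26.5% of all genes. Of the enzymes known to associate with the signalosome, 6 of 7 could be tested, and the kinase subunits Csnk2b (0.66) and Csnk2a1 (0.16) rose while Itpk1 (-0.33), Ip6k1 (-0.23) and the deubiquitinase Usp15 (-0.21) fell. For Usp15 and Ip6k1 the sign depended on length, with 0.49 (edgeR adjusted p 0.00114) and 0.03 (edgeR adjusted p 0.739) after the correction. Myc was at 200.2 ± 29.2 and 215.0 ± 18.4 CPM (SD, n = 3) and did not pass the test (edgeR adjusted p 0.427).

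The genes whose pattern over the 6 libraries was nearest to that of Cops6 were Slc25a5, Rpl30, Wdr89, Rpl10a and Gm8730, at a root mean square distance of 0.0148 to 0.0193 in centred log2 CPM, out of 10820 genes with a mean count of at least 100. Slc25a5 encodes a mitochondrial ADP/ATP carrier, and Rpl30 and Rpl10a encode ribosomal proteins. Their log2 fold changes were 0.58 to 0.62, close to the 0.60 of Cops6. Among the other subunits Cops5 came nearest to Cops6 (rank 326, distance 0.0556), followed by Cops7a (rank 2002, distance 0.133) and Cops9 (rank 3531, distance 0.206). A closeness of this kind follows in large part from a like fold change and a small spread, over 2 groups of 3 libraries.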

How the data were processed

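LSK RNA was sequenced from 3 Tespa1+/+ and 3 Tespa1-/- samples, grouped by the sample titles. The authors deposited a table of raw counts and FPKM values per gene. The submitters' processing notes name CASAVA 1.8, HISAT2, StringTie, edgeR and the build GRCm38, without further versions. The deposited FPKM equals the count divided by the library total and by a fixed length per gene.

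The main test was the quasi-likelihood test of edgeR 4.0.16 in R 4.3.3, over all 6 samples and without covariates, on counts that passed filterByExpr and carried TMM factors, with Benjamini-Hochberg adjustment over 15332 genes and a threshold of 0.05. CPM values carry TMM factors, except those per kilobase of union exon. Lengths are union exons of GENCODE M21, which held 55227 of the 55487 genes. The length correction subtracted, per library, a loess fit (span 0.5) of log2 CPM deviation on log length. Alternatives were RLE factors, total counts, other filters, DESeq2 1.42.0, limma-trend 3.58.1 on log2(FPKM + 1) and log2(FPKM + 0.1), a replicate block, and leaving out each replicate. Shares and ratios were tested with two-sided exact permutation tests in scipy 1.17.1.

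On simulated counts in which a small share of genes was changed, edgeR recovered 100% of the changed genes among 14031 and made 6 false calls. The changes were of equal size, as many up as down, and all genes had the same dispersion. In the real libraries 31.5% of the genes rose and 31.8% fell, so these figures do not show how the test or its scaling performed there. When a trend with log union exon length was added, edgeR called 4344 genes outside the changed set, and 13 after the length correction (14022 genes). The correction fits that same variable, so this shows only that such a trend is removed. Whether the length trend of the real libraries is technical was not tested. Intervals cover the spread between libraries, and a count is not a count of independent molecules, since reads carried no molecular identifiers. All 10 subunits, overlapping genes, Tespa1, Myc, cullins and fixed pathway genes were named, besides the 3 largest rises and falls of each other list with a mean count of at least 100 and the 5 genes nearest to Cops6. The members and lists were chosen with earlier results of these data known. A marker gene that the rule would name is not reported here.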

Additional observations from a re-analysis of the deposited data

How the results depend on the processing

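Cops5, Cops6, Cops7a and Cops9 were higher past the test under all 16 other settings, with log2 fold changes of 0.48 to 0.67, 0.44 to 0.63, 0.22 to 0.38 and 0.69 to 1.02. Subunits past the test and lower numbered 2 with total counts and with limma-trend on log2(FPKM + 1) or log2(FPKM + 0.1), and 1 with at least 10 counts in every sample. Over all genes, 5684 of 15332 were lower with total counts and 4375 or 4360 of 12704 with limma-trend. With at least 10 counts in every sample, 4402 of 13563 were lower. Under total counts and both limma-trend fits, 1 subunit was past 1.5-fold, and the median log2 fold change was 0.16 (total counts) or 0.15 (limma-trend). Over all genes, 1491 of 15332 were higher past 1.5-fold with total counts, and 1070 or 1365 of 12704 with limma-trend. The medians over all genes were -0.10 and -0.02. Signs turned for Cops4 (0.06, union exon length correction), Cops8 (0.01, implied length) and the log2 ratio of Cops7a to Cops7b (-0.14, length-corrected). The Cops6 share difference was 2.91 points as a share of counts and 4.01 without Cops9. Cops7b missed the threshold under 12 of 16 settings (log2 fold change 0.06 to 0.48), for instance with DESeq2 (adjusted p 0.131).

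Leaving out each replicate gave 4 to 5 higher subunits, 0 lower, 2 to 3 past 1.5-fold and medians of 0.22 to 0.31. Of 15386 to 15857 genes tested in these fits, 4490 to 4664 were higher and 4374 to 4590 lower. Higher past 1.5-fold were 2078 to 2246 genes. The Cops6 share differences were 1.69 to 2.12 points. Those of the Cops7a to Cops7b log2 ratio were 0.09 to 0.24, the lowest without Tespa1-/- replicate 3. Cops2 passed without Tespa1-/- replicate 2, Cops3 without Tespa1+/+ replicate 1 and Gps1 without Tespa1-/- replicate 1. On all libraries Cops2 (adjusted p 0.037) and Cops3 (0.0422) also passed with DESeq2, which gave 6 higher subunits beside 4176 higher of 15332 genes. Cops3 passed with a filter of a count above 0 in 1 sample too (edgeR adjusted p 0.0373).

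In their deviations from the group mean, same-numbered samples correlated by 0.046, 0.011 and 0.060, and the other pairs by -0.048 to 0.004. Correlations this low cannot decide whether the numbers pair the samples. With the replicate number as a block, 5 subunits were higher and 0 lower, beside 4675 higher and 4697 lower of 15332 genes. The median was then 0.25, Cops3 passed (edgeR adjusted p 0.0197) and Cops7b did not (0.0909). Within replicate numbers the share difference of Cops6 was 1.91 points and the Cops7a to Cops7b log2 ratio difference 0.17. The causes of these shifts were not tested.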
